A study of Rattus norvegicus with 10 samples.

Results

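Klf9 and 5 genes of thyroid hormone action, namely Thrb, Thra, Dio1, Gpd2 and Hr, were examined in the livers of rats that ate an instant noodle diet with or without its seasonings. All probe sets that the array's gene table assigns to only 1 of these 6 genes were taken, which gave 14 probe sets of 31042 and 6 genes of 14217. Klf9 was selected on its diet difference, the seasoned minus control log2 signal in an earlier reading of the same arrays, and the other members were chosen beside it, so the diet differences of the 6 genes are given as descriptions with no test. Expression was measured on 1 array per liver in 10 male rats aged 13 weeks, whose strain is not given in the labels. The seasoned group of 5 animals (numbers 1, 4, 7, 10 and 13) received for 30 days a feed made up to 30% by weight of instant noodle, in which fat supplied 26% of the energy. The control group of 5 animals (numbers 2, 5, 8, 11 and 14) received the same feed with the seasonings left out. Feeding was paired, at roughly 60 g of feed for each kg of body weight daily, under equal hours of light and dark.

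Thyroxine made by the thyroid gland is converted in the liver to the active hormone T3 by the type 1 deiodinase. T3 enters the nucleus and binds the receptors encoded by Thra and Thrb, which sit on DNA as partners of retinoid X receptors. Without hormone the receptors hold corepressors and keep target genes low, and with hormone they exchange them for coactivators. Thrb gives the main receptor of hepatocytes. Klf9 is a zinc finger transcription factor of the Krüppel-like family that binds GC-rich promoter elements. Its gene responds to T3 and to glucocorticoids, and it follows the circadian clock in several tissues.

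The promoters of Klf9 and Thrb are shown because these were the 2 member genes whose signals were lower with the seasoned diet. The 250 bases before each transcription start are given in the direction of transcription, from RefSeq on the GRCr8 assembly. Klf9 lies on the plus strand at chr1:230126396-230126645 and Thrb on the minus strand at chr15:10461447-10461696. Capitals mark the motifs that were found.
Klf9: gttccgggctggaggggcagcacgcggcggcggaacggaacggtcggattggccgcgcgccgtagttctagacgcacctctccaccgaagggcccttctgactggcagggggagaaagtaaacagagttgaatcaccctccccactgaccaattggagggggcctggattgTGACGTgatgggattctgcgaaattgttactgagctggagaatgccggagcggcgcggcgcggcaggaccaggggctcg
Thrb: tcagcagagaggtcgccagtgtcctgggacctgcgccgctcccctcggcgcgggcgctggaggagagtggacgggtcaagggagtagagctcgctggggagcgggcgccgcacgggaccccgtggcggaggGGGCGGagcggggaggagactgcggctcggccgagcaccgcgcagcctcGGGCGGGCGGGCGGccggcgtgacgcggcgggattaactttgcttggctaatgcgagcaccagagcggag

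Short motifs were searched on both strands of these windows and of all 33469 RefSeq promoter windows of the same length. The Klf9 window held 1 match to TGACGT, the half-site of the cAMP response element, which starts at position -79 from the transcription start and is found in 6.95% of all windows. The Thrb window held 4 matches to GGGCGG, the core of the GC box, 3 of which overlap one another. This motif also had 4 matches in a Thra window and 2 in the Gpd2 window, so 3 of the 6 member windows held it. At least 1 match is found in 30.5% of all windows. The nuclear receptor half-site AGGTCA (14.1% of all windows), the E-box CACGTG (5.59%), the D-box TTATGTAA (0.828%) and the glucocorticoid receptor half-site TGTTCT (17.5%) had no match in the 6 windows of the 5 member genes with an entry, which says only that these letters are absent from these windows.

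The deposited values are log2 signals, and they fall into 2 classes that decide what can be read for each gene. Of the 14217 genes, 11604 (81.6%) had an SD at or under 0.01 log2 units over all 10 arrays. These are called near-constant here and the other 2613 varying. A near-constant value shows no difference of measurable size in the table, and does not show that the RNA was equal. The 7 measured hepatocyte markers had a median signal of 13.4. Alb, Ttr, Apob, Fgb and Serpina1 were near-constant, and Cps1 varied and overlapped between the diets. Apoa1 lay higher in every seasoned liver than in any control, by 0.23 ± 0.07 (adjusted p = 0.753 by limma). The diets did not overlap, in either direction, in 71 of the 2613 varying genes. Brain markers were examined because the extraction text speaks of brain. Of the 4 measured, Gfap, Syt1 and Snap25 were near-constant at or under the array medians of 6.47 to 6.48, while Mbp varied above them, at 7.38 in seasoned and 7.15 in control livers, a difference of 0.23 ± 0.21. The part of Apoa1 or Mbp in the results below was not tested. Several livers stood apart within their diet. Control animal 5 had the highest signal of the 5 controls in 50.2% of the varying genes, and seasoned animals 10 and 13 had the lowest of their diet in 36.4% and 36.8%. Control animal 11 had the lowest signal of the controls in 52.0%. It was also the lowest control in all 8 varying probe sets of the members, so their differences are given with and without it. Leaving out the lowest control can only move a seasoned minus control difference down, so nothing is read from that direction. In whole liver, fewer cells of a type and less RNA per cell cannot be told apart.

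Klf9 lay lower in every seasoned liver than in any control. In its brightest probe set, 1370209_at, the log2 signals of the seasoned animals 1, 4, 7, 10 and 13 were 9.31, 9.08, 8.87, 9.42 and 9.07. Those of the control animals 2, 5, 8, 11 and 14 were 9.96, 10.11, 10.49, 9.76 and 10.09. The groups did not overlap, and a gap of 0.34 log2 units separated the highest seasoned liver, animal 10, from the lowest control, animal 11. The means were 9.15 ± 0.22 (SD, n = 5) and 10.08 ± 0.27, a log2 difference of -0.93 ± 0.15 (SE), or a 1.91-fold higher control signal. The difference was -1.01 without control animal 11.

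The other Klf9 probe sets did not all behave in the same way. Probe set 1387882_at gave 6.77, 6.57, 6.71, 6.79 and 6.55 in the seasoned animals and 6.92, 7.08, 7.34, 6.89 and 7.12 in the controls. The groups again did not overlap, at a smaller difference of -0.39 ± 0.09, or -0.44 without control animal 11. Both probe sets placed control animal 8 highest. With each liver's signal taken relative to the mean of its own diet (10 livers), these 2 probe sets had a Pearson r of 0.818 (exact permutation p = 0.0144, adjusted p = 0.0240 over 5 probe set pairs) and a Spearman rho of 0.855 (exact permutation p = 0.00604, adjusted p = 0.0151). Without the 2 livers farthest from the median, r was 0.569. The third probe set, 1390076_at, was near-constant, at 6.06 in every liver.

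Thrb, the main thyroid hormone receptor gene of hepatocytes, had lower mean signals with the seasoned diet in each of its 3 varying probe sets, and the groups overlapped in all 3. Probe set 1394456_at gave 8.53, 8.46, 8.60, 8.65 and 8.73 in the seasoned animals 1, 4, 7, 10 and 13. The controls 2, 5, 8, 11 and 14 gave 8.84, 8.89, 9.14, 8.60 and 9.08. All 5 seasoned livers lay below every control other than animal 11, and the difference was -0.31 ± 0.11, or -0.39 without that animal. The control signal was 1.24-fold higher.

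The further Thrb probe sets gave differences of similar size. Probe set 1378457_at gave 8.0, 7.96, 8.36, 8.11 and 8.11 in the seasoned animals and 8.39, 8.20, 8.66, 8.14 and 8.70 in the controls. Here 4 of 5 seasoned livers lay below all controls, seasoned animal 7 being the exception, and the difference was -0.31 ± 0.13, or -0.38 without control animal 11. Probe set 1370474_at gave 6.78, 6.92, 7.08, 6.84 and 6.95 against 7.41, 7.27, 7.51, 6.80 and 7.43. In it 1 seasoned liver, animal 1, lay below all controls, while all 5 lay below the other 4 controls, and the difference was -0.37 ± 0.14, or -0.49 without control animal 11. Within the diets the 3 probe sets varied together, with pairwise Pearson r between 0.776 and 0.786 (exact permutation, adjusted p between 0.0116 and 0.0299 over the 5 pairs) and Spearman rho between 0.636 and 0.806 (adjusted p between 0.0328 and 0.0812). Without the 2 livers farthest from the median, the pair 1394456_at and 1370474_at fell to an r of 0.264. The fourth Thrb probe set, 1387983_at, was near-constant at 6.42.

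Thra, which encodes the other T3 receptor, was near-constant in all 3 of its probe sets, at signals of 6.97, 6.84 and 5.49. Hr encodes Hairless, a corepressor that binds the thyroid hormone receptors and is itself a T3 target in brain. Its single probe set was near-constant at 6.09. Neither gene therefore gave a difference of measurable size.

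Dio1, the type 1 deiodinase, is both the liver's T3-forming enzyme and a T3 target. Its probe set, 1369259_at, gave 7.62, 7.46, 7.91, 7.26 and 7.54 in the seasoned animals and 7.78, 7.35, 7.35, 7.04 and 7.77 in the controls. The groups overlapped over most of their range, with a difference of 0.10 ± 0.18 and of -0.01 without control animal 11. Seasoned animal 7 was the highest of all livers for Dio1 and the lowest of all for Klf9 in probe set 1370209_at.

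Gpd2, the mitochondrial glycerol-3-phosphate dehydrogenase and a long-known T3-induced enzyme of rat liver, also overlapped between the diets. Probe set 1369666_at gave 6.89, 7.03, 7.29, 7.11 and 7.72 in the seasoned animals and 7.15, 7.33, 7.48, 6.72 and 7.02 in the controls, a difference of 0.07 ± 0.19. Probe set 1387670_at gave a difference of 0.05 ± 0.15. Without control animal 11 these differences were -0.04 and -0.01. Seasoned animal 13 was the highest liver in both probe sets. They varied together within the diets, with a Pearson r of 0.929 (exact permutation p = 0.000625, adjusted p = 0.00312) and a Spearman rho of 0.915 (exact permutation p = 0.00153, adjusted p = 0.00764).

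**Figure D1:**
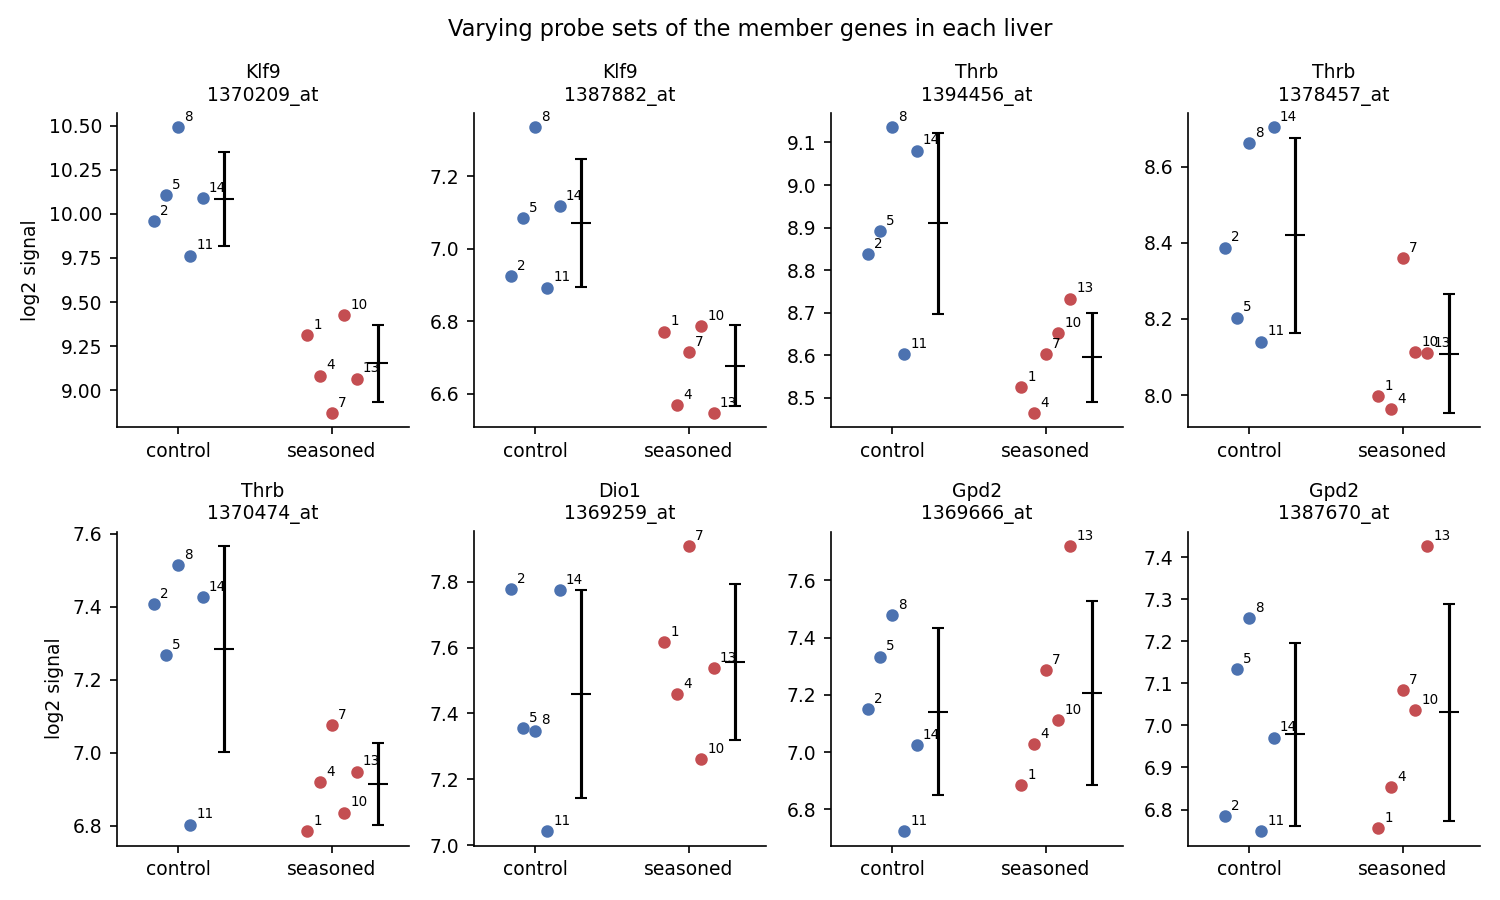
Log2 signal (y axis, scaled separately in each panel and not starting at 0) of the 8 varying probe sets of Klf9, Thrb, Dio1 and Gpd2 in each of 5 control and 5 seasoned livers, with points numbered by animal and the mean ± SD beside each group. The diets do not overlap in either Klf9 panel, they overlap through control animal 11 or seasoned animal 7 in the Thrb panels, and they overlap broadly for Dio1 and Gpd2.

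Of the 6 member genes, 1 (Klf9) did not overlap between the diets and was lower with seasonings, against 0.331% of all genes and 1.11% of varying genes. By probe set the count was 2 of 14, against 0.3% of all probe sets and 1.26% of varying ones. As the earlier difference of Klf9 led to its choice, nothing is read from these shares. In limma's test over all 14217 genes 0 genes (0%) passed at an adjusted p under 0.05, 669 had an unadjusted p under 0.05, and a per-gene statistic with unequal variances called 0 (562 unadjusted).

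The animal numbers form a second division of the livers that the labels do not name as a batch. Animals 1 to 7 and animals 8 to 14 were compared separately because many genes differed between these sets in an earlier reading of the arrays. The first set held seasoned animals 1, 4 and 7 and control animals 2 and 5. Seasoned animals 10 and 13 and control animals 8, 11 and 14 made up the second. With so few livers per set, the differences are given as descriptions without an SE. For Klf9 (1370209_at) the first set gave a diet difference of -0.94 and the second one of -0.87. Its probe set 1387882_at gave -0.32 and -0.45. Thrb gave -0.33 and -0.25 (1394456_at), -0.19 and -0.39 (1378457_at), and -0.41 and -0.36 (1370474_at). For Gpd2 (1369666_at) the sign was not the same in both sets, at -0.17 and 0.34, while Dio1 gave 0.10 and 0.01.

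Whether Klf9 moved with the receptor and deiodinase genes was then asked within the diets, where the difference that led to the choice of Klf9 does not enter. Each gene was centred on its diet's mean and correlated with Klf9 (1370209_at) over the 10 livers, with livers permuted within their diet. A family of 12 genes had been listed, of which 8 varied, while Thra, Hr, Per1 and Fkbp5 were near-constant and could not be used. None of the 8 relations passed after adjustment. All values come from the same arrays, and control animals 8 and 11 hold the extremes of Klf9.

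Thrb had a Pearson r of 0.61 with Klf9 (exact permutation p = 0.0941, or 0.287 when adjusted over the 8 relations) and a Spearman rho of 0.552 (exact permutation p = 0.147, adjusted p = 0.546). Without control animal 8 and seasoned animal 10, the 2 livers farthest from the Klf9 median, r was 0.392, and without control animal 11 it was 0.399. The 2 other varying Thrb probe sets gave weaker relations, with r of 0.268 (1378457_at) and 0.338 (1370474_at), and 0.000138 and -0.294 without control animal 11. Relative to the means of both diet and animal-number set, Thrb had an r of 0.566 (exact permutation p = 0.507).

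Dio1 had an r of -0.207 with Klf9 (exact permutation p = 0.611, adjusted p = 0.759) and a rho of -0.309 (exact permutation p = 0.417, adjusted p = 0.667). Without control animal 11, which was lowest of its diet for both genes, r was -0.743 (adjusted p = 0.247 by exact permutation), and without the 2 livers farthest from the Klf9 median it was 0.152. Gpd2 had an r of 0.236 (exact permutation p = 0.523, adjusted p = 0.759) and a rho of 0.2 (exact permutation p = 0.606, adjusted p = 0.808), with r = 0.00523 without the 2 farthest livers. Relative to the means of diet and animal-number set, Dio1 had an r of -0.0987 and Gpd2 one of 0.185. The sign of both relations turned with 1 liver left out, to 0.0256 for Dio1 without seasoned animal 7 and for Gpd2 to -0.0756 without control animal 8 or -0.0591 without control animal 11.

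Of the genes outside the 6, Me1, the T3-induced malic enzyme, had the largest r at 0.67 (exact permutation p = 0.0517, adjusted p = 0.287), with rho = 0.491 (adjusted p = 0.546) and r = 0.372 without the 2 farthest livers. Dbp, a clock output factor, had an r of 0.607 (exact permutation p = 0.108, adjusted p = 0.287) and a rho of 0.564 (adjusted p = 0.546), with r = 0.516 without the 2 farthest livers and 0.373 without control animal 11. Between the diets Dbp differed by -2.46 ± 0.47, with every seasoned liver below every control, and Nr1d1, a clock repressor, by -0.96 ± 0.31, with overlap. Neither passed over all genes with every liver kept. Without control animal 11, Dbp was among the 5 genes that passed over all 14217 genes in limma's fit, and Nr1d1 was not. That animal was the lowest control for Dbp, so leaving it out can only move the Dbp difference down. Dbp was at 7.28 in control animal 11 and between 9.08 and 9.43 in the other controls, and its part in the Klf9 values was not tested. The remaining genes, Nr1d1, Thrsp and Tsc22d3, had r of 0.448, -0.166 and 0.00613, with adjusted p between 0.407 and 0.984 by exact permutation. Relative to the means of diet and animal-number set, r was 0.71 for Dbp, 0.64 for Me1 and 0.63 for Nr1d1. It was -0.32 for Thrsp and -0.15 for Tsc22d3, and the adjusted p of these genes lay between 0.5 and 0.825 by exact permutation.

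**Figure D2:**
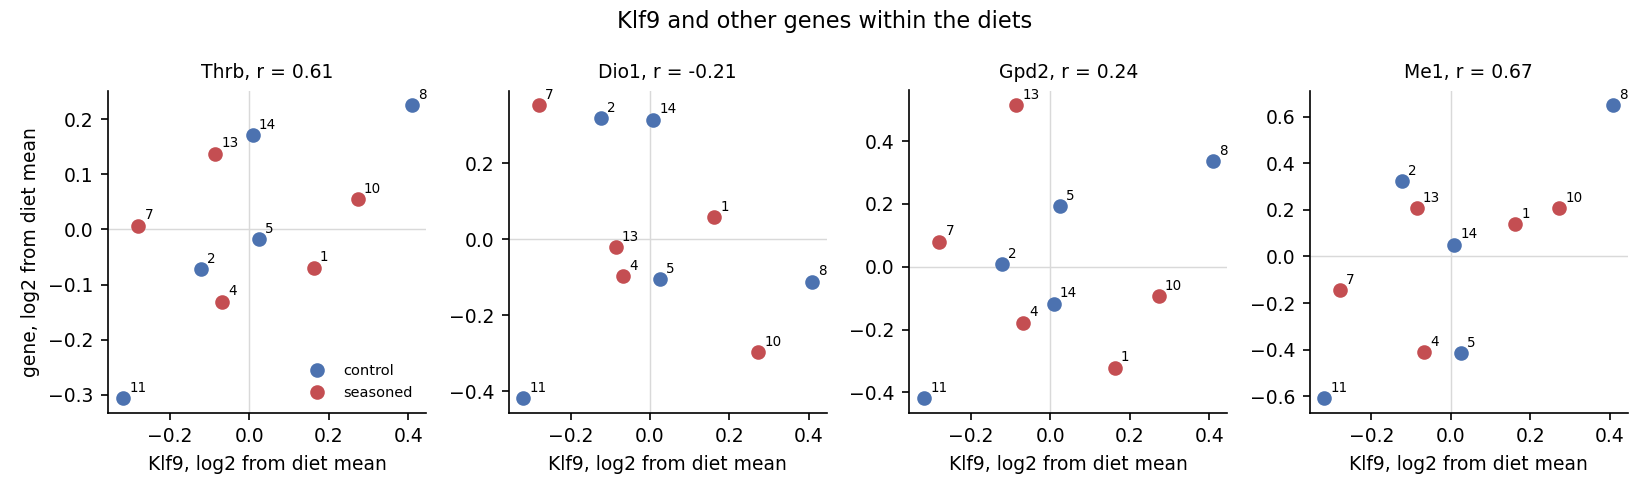
Klf9 (x axis, probe set 1370209_at) against Thrb, Dio1, Gpd2 and Me1 (y axes, scaled separately), each as log2 signal minus the mean of its diet, with 1 point per liver numbered by animal (5 control, 5 seasoned). Control animals 8 and 11 lie at the right and left ends for Klf9, and control animal 11 is the lowest point in all 4 panels. Pearson r is 0.61, -0.21, 0.24 and 0.67.

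A wider list of the thyroid hormone pathway was read by role. Of its 40 genes other than the 6 members, 35 were measured and 13 varied. In limma's fit over all genes 0 of the 35 passed, with a smallest adjusted p of 0.765. An unadjusted p under 0.05 was found for 3, all of them varying, against 669 of 14217 genes and 303 of 2613 varying genes. Of the 13 varying genes 7 had differences below 0, with a median of -0.03. Among all varying genes 1116 of 2613 (42.7%) were below 0 and the median was 0.02.

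The genes of hormone transport, the deiodinases, the receptor partners and the coregulators mostly held near-constant signals, as did 81.6% of all genes. Of 6 measured genes of hormone transport and binding 2 varied. Slc16a10, a transporter of aromatic amino acids and thyroid hormone, differed by -0.03 ± 0.08, and Serpina7, thyroxine-binding globulin, by 0.16 ± 0.36. Dio2 and Dio3, the other deiodinases, were near-constant, as were the receptor partners Rxra, Rxrb and Rxrg. Of 12 measured coregulators, Hr included, only Tbl1xr1, a subunit of the NCoR corepressor complex, and Ncoa1, a coactivator, varied, with differences of 0.08 ± 0.11 and 0.09 ± 0.13.

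Most target genes of the liver varied, and they did not share one direction. Of 15 measured targets, Klf9 and Gpd2 included, 11 varied, 7 with lower and 4 with higher mean signals in seasoned livers. Cpt1a, the entry step of mitochondrial fatty acid oxidation, differed by -0.48 ± 0.15 (adjusted p = 0.765 by limma) and Pck1, a gluconeogenic enzyme, by -0.17 ± 0.07 (adjusted p = 0.999), while Atp1b1, a subunit of the sodium-potassium pump, differed by 0.27 ± 0.12 (adjusted p = 0.999). These were the 3 genes with an unadjusted p under 0.05. Thrsp, the classical T3-responsive gene of lipogenesis, differed by -0.31 ± 0.30 and Me1 by 0.01 ± 0.26. None of these passed.

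**Figure D3:**
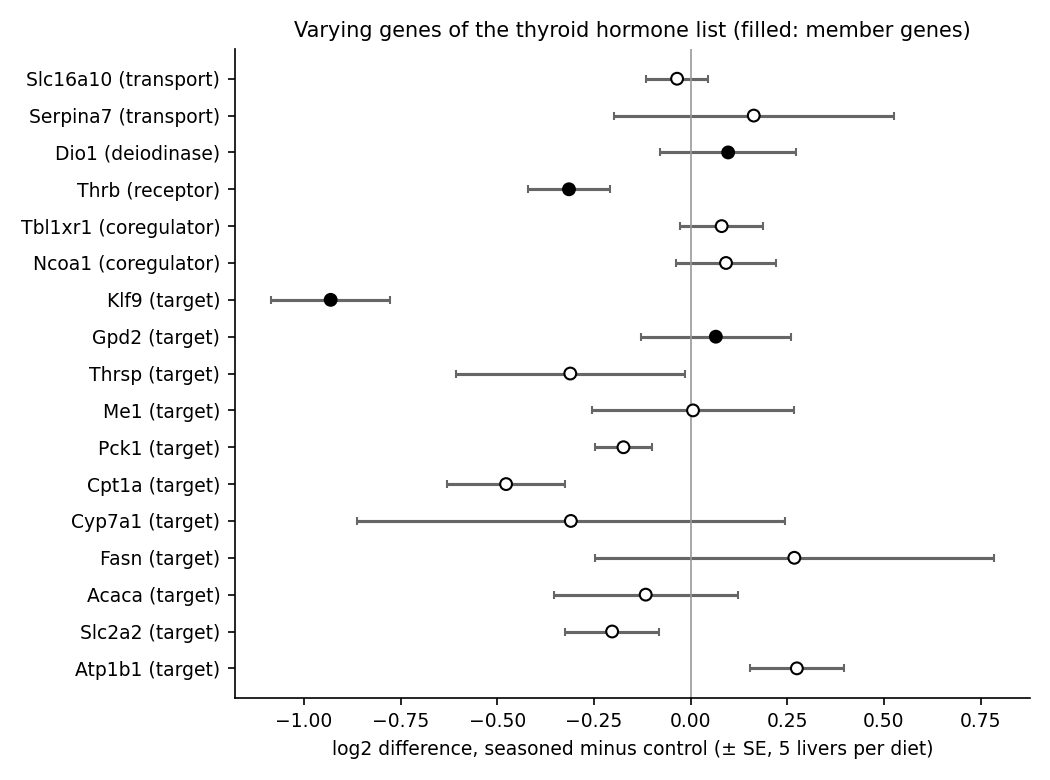
Log2 difference, seasoned minus control, with its SE (5 livers per diet) for the 17 varying genes of the thyroid hormone list, each labelled with its role, filled for the member genes. Klf9 lies farthest from 0 at -0.93, followed by Cpt1a at -0.48 and by Thrb, Thrsp and Cyp7a1 at -0.31. Cyp7a1, with an SE of 0.55, Dio1 and Gpd2 are among the genes that lie within 1 SE of 0.

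The relatives of Klf9 were read in the same way. Of 16 further genes of the Krüppel-like family 13 were measured and 8 varied, of which 7 had lower mean signals with the seasoned diet (Klf3, at 0.21 ± 0.13, did not). In limma's fit 0 of the 13 passed over all genes, with a smallest adjusted p of 0.591, and 3, all of them varying, had an unadjusted p under 0.05. Over all varying genes 42.7% were below 0, and 303 of 2613 had an unadjusted p under 0.05. The median of the 8 was -0.31, against 0.02 over all varying genes. Quantile normalization of the deposited values and median centring changed the sign of 0 of the 8. The array medians already lay between 6.47 and 6.48, which left these steps little to change, so nothing is read from this.

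Klf10, a TGF-beta-inducible member that also follows the clock in liver, gave 8.01, 7.71, 7.92, 8.13 and 7.28 in the seasoned animals and 8.40, 8.57, 9.18, 8.68 and 8.40 in the controls. It did not overlap between the diets, at a difference of -0.83 ± 0.21 (adjusted p = 0.591 by limma), and control animal 8 was highest, as for Klf9. Control animal 11, the lowest control for Klf9, was not the lowest for Klf10. The lowest seasoned liver was animal 13 for Klf10 and animal 7 for Klf9 (1370209_at). Groups that did not overlap, with the seasoned one lower, made up 1.11% of varying genes. Klf16 differed by -0.63 ± 0.17 (adjusted p = 0.651) and Klf11 by -0.37 ± 0.16 (adjusted p = 0.999). Klf15, a glucocorticoid-induced regulator of amino acid catabolism and gluconeogenesis, differed by -0.38 ± 0.19. None of them passed.

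**Figure D4:**
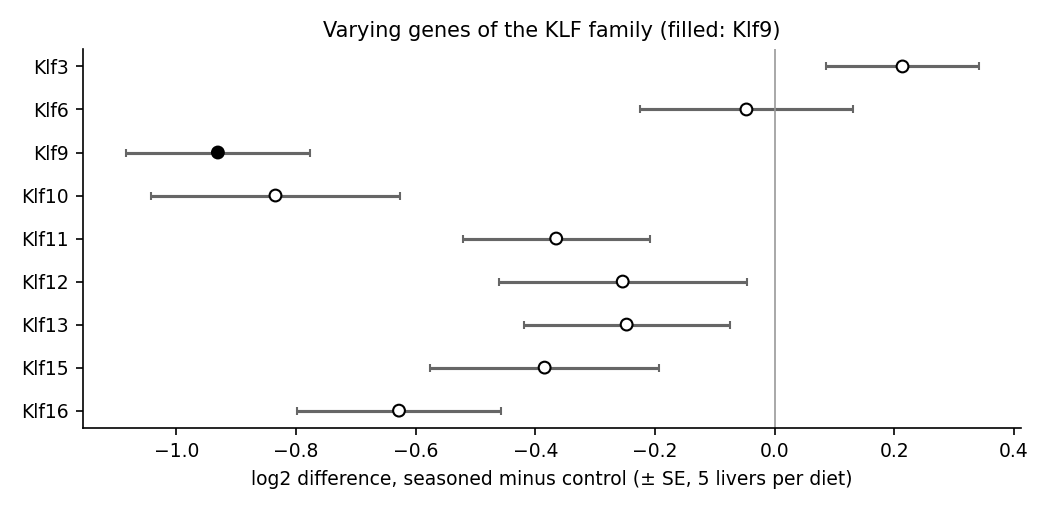
Log2 difference, seasoned minus control, with its SE (5 livers per diet) for the 9 varying genes of the Krüppel-like family, with Klf9 filled. Klf9 at -0.93 and Klf10 at -0.83 lie farthest below 0, and Klf3 at 0.21 is the only one above 0.

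Klf9 was finally compared with the other 2612 varying genes by Pearson r over the 10 livers, taken relative to the means of their diets, as a description of likeness with no test. The highest r were those of RGD1559600 (0.921), Rapgef4 (0.861), which encodes a cAMP-activated exchange factor, Deptor (0.859), an inhibitor of mTOR, Plekhb1 (0.825) and Bcl2l11 (0.814), the proapoptotic Bim. The lowest were those of Gckr (-0.910), the glucokinase regulatory protein, Sparc (-0.879), a matrix protein, and Cdk1 (-0.851), a cell cycle kinase. In all, 17 genes exceeded an r of 0.8 in size, and Thrb ranked as number 94 from the top. Of the 5 most alike genes only RGD1559600 differed between the diets by more than 1 SE in the direction of Klf9, at -0.32 ± 0.18, and Plekhb1 differed by 0.10 ± 0.08.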

How the data were processed

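Total RNA of 10 livers was converted to biotin-labelled cRNA from 100 ng per sample, per the labels' protocols. The authors deposited log2 signals, 1 for each probe set on each array. The methods behind them are not named (not given in the sources used here), and their log base was read from the range of 4.79 to 14.34. Intensities and detection calls were not used, and precision is limited by how many arrays there are. Control probe sets (57 of 31099) were left out. The platform's gene table gave 20826 probe sets exactly 1 gene, 436 several and 9780 none, and current symbols were taken from the GRCr8 gene table by gene identifier (20758 matched). The probe set with the highest mean stood for each gene.

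The diets were compared with limma 3.58.1 (lmFit, eBayes, two-sided) in R 4.3.3, with Benjamini-Hochberg adjustment over all genes at 0.05. Standard errors are from each gene's own residual SD. Relations within the diets used exact two-sided permutation in Python 3.11.15. The fit and the permutation were tested on simulated data. The animals are numbered separately, so p-values measure the spread between rats. All seasoned arrays carry codes of letter A and all controls of letter B, so array row, if that is what the letter means, and diet cannot be told apart.

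The members, lists and tests were chosen with earlier results of these data known. Named by rule were the members, up to 3 varying genes of smallest p per role, the relation family, and the 5 highest and 3 lowest genes by likeness. Klf3, Klf15, Atp1b1, Apoa1 and Mbp were named after their values were seen. Markers of macrophages, endothelium, stellate cells, cholangiocytes, lymphocytes and erythroid cells were also read, and 0 of their genes passed in a fit that called 0 of all genes. Alternatives were the removal of dim genes, other choices of probe set, median centring, quantile normalization of the deposited values and different variance models. Further ones were varying genes alone, animal number, array position and animal-number sets as covariates, and leaving out each liver.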

Additional observations from a re-analysis of the deposited data

Results flagged for a closer look

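In 3 of 58 groups of 5 livers (29 probe sets or genes in both diets), 1 liver lay apart from the next one by over 0.71 of the whole spread of its diet, where chance gives about 2.9. Control animal 11 was low for Dbp (ratio 0.8336), control animal 8 was high for Rapgef4 (0.8893), and control animal 2 was high for Thrsp (0.8295). No member probe set was among them.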

How the results depend on the processing

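No paired analysis was possible because the labels speak of paired feeding without saying which animals formed a pair, and the diets share no animal number. The diet differences of Dio1, Gpd2 and Thrb moved by less than 1 SE of the main fit under all alternatives run, leaving out each liver included. With 1 liver left out, the difference ran from -0.39 to -0.26 for Thrb and from -1.01 to -0.83 for Klf9. It ran from -0.01 to 0.18 for Dio1 and from -0.06 to 0.15 for Gpd2, so these took both signs. Thra ran from 0.000172 to 0.000452 and Hr from -8.99e-05 to 0.000108. Thrb was -0.25 with the mean of all its probe sets. Klf9 was -0.44 with the mean of its 3 probe sets, 1 of which is near-constant. Quantile normalization of the deposited values gave 0.000935 for Thra and -0.000441 for Hr. The count of genes called between the diets, 0 over all genes, was 2 with array position as a covariate, 4 among varying genes alone and 12 among them with the animal-number block, and it ran from 0 to 5 over all genes with 1 liver left out, highest without control animal 11. Among varying genes leaving out a control gave 52 (animal 11), 8 (animal 2), 2 (animal 8) or 0 (animals 5 and 14), and leaving out a seasoned liver gave 16 (animal 10), 6 (animal 13) or 0 (animals 1, 4 and 7). The count of probe sets called was 0, 13 among varying probe sets alone, and 0 to 10 with 1 liver left out, again highest without control animal 11. The thyroid list outside the members gave 0 calls in each of 32 alternatives. In 23 of these no gene at all was called, so the list could not have given a call there. None of the 8 relations of Klf9 passed in any of 15 alternatives. With 1 liver left out, r ran from 0.399 to 0.700 for Thrb, -0.743 to 0.0256 for Dio1, -0.0756 to 0.443 for Gpd2, 0.440 to 0.785 for Me1, 0.373 to 0.708 for Dbp, 0.225 to 0.677 for Nr1d1, -0.336 to -0.0624 for Thrsp and -0.408 to 0.379 for Tsc22d3. The fits on varying genes with a block or without 1 liver, the probe set counts of those kinds and the relations by probe set were added after seeing the data.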
